A study of Mus musculus with 6 samples.

Results

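The CC chemokine genes Ccl2, Ccl5, Ccl7, Ccl8, Ccl9, Ccl11, Ccl20, Ccl25 and Ccl27a and the CX3C chemokine gene Cx3cl1 were followed in 3 mouse embryonic fibroblast (MEF) cell lines by mRNA sequencing. These 10 genes were taken by symbol from the 27179 genes of the count tables. They were chosen by their measured counts in these lines, that is with their values already known, so their levels and fold changes are given as a description, and calls of these genes from the fit over all genes only restate that choice. The CPN-/- cell line lacks CRY1, CRY2, PER1, PER2, NR1D1 and NR1D2, the main repressor proteins of the circadian clock, and CPN-/- CRY1 and CPN-/- CRY2 are derivatives of it that carry mouse Cry1 or Cry2 cDNA. All 3 lines therefore share the 6 gene knockouts. The cDNA was delivered by a retroviral vector and expressed from a viral promoter, which does not follow the clock, and each derivative was selected with blasticidin as a single colony. Each derivative is thus 1 clone, and an effect of the clone and an effect of the CRY protein cannot be told apart. Each line had 2 libraries from independent RNA preparations of growing, untreated cultures.

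Chemokines are small secreted proteins that bind heparan sulfate on cell surfaces and matrix and guide leukocytes through G protein-coupled receptors. The class is named after the spacing of the first cysteines of the mature protein, which are adjacent in CC chemokines and separated in CX3CL1, a chemokine made as a membrane protein on a mucin stalk that can be shed by proteases. Fibroblasts are a well-known source of CCL2 and CCL7, which attract monocytes through CCR2, and several genes of the family are induced through NF-kB by TNF, IL-1 or Toll-like receptor signals. The cysteine codons are shown because they define both classes. They are written in capitals with 15 coding bases on either side, from the GENCODE transcripts of the GRCm38 assembly:
Ccl2: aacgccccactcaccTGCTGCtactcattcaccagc
Ccl7: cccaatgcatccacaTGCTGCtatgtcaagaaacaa
Ccl5: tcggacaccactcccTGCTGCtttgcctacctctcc
Ccl20: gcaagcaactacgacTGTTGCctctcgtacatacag
Cx3cl1: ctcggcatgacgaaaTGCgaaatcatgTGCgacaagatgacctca
The site was searched as the first adjacent pair of cysteine codons in the CC genes. In Cx3cl1 it was searched as the first pair with 9 bases between the codons. The spacing shown therefore follows from the search. Such a site was present in the 4 CC genes printed, in the other 5 CC genes and in Cx3cl1.

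The libraries held 25957409 to 36106949 counts. In these libraries 3 counts correspond to 0.0831 to 0.116 CPM, the unit used for levels below, in which counts are scaled by the library size of the tested genes and its TMM factor. Across all tested genes the 2 CPN-/- libraries differed more from each other (SD of the log2 difference 0.435) than those of CPN-/- CRY1 (0.232) or CPN-/- CRY2 (0.245). Reads of Cry1 and Cry2 were still found in the CPN-/- line, so a count over the whole gene does not test the knockout. Cry1 was at 125 and 115 CPM in CPN-/-, at 165 and 189.6 CPM in CPN-/- CRY1, and at 51.0 and 48.3 CPM in CPN-/- CRY2. Cry2 was at 136 and 129 CPM in CPN-/-, at 50.7 and 51.7 CPM in CPN-/- CRY1, and at 349 and 351 CPM in CPN-/- CRY2. Each added gene was thus highest in the line labelled with it. Of 9 fibroblast markers, Col1a1 was at 2179 CPM or more, Vim at 2384 or more and Col1a2 at 3624 or more in every library. Pdgfrb was at 119 to 265 CPM and Pdgfra at 31.8 to 92.7 CPM. Col3a1 was at only 8.66 to 12.9 CPM, and Dcn at 0.0324 to 2.24 CPM, lowest in CPN-/- CRY1. Thy1 and Lum had 10 counts or fewer in each library.

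Ccl2 and Ccl7, the genes of the monocyte chemoattractants, had the highest CPM of the family in CPN-/- and lay far lower in both CRY-expressing lines. Ccl2 was at 193.5 and 272.9 CPM in CPN-/-, at 34.97 and 35.10 CPM in CPN-/- CRY1, and at 22.56 and 27.61 CPM in CPN-/- CRY2. No library of either derivative came near the CPN-/- libraries, although these differed more from each other than the libraries of either derivative. The log2 fold change of Ccl2 was −2.73 (SE 0.19), 6.65-fold lower, in CPN-/- CRY1 and −3.22 (SE 0.19), 9.29-fold lower, in CPN-/- CRY2. Ccl7 was at 88.4 and 126.3 CPM in CPN-/-, at 8.58 and 9.44 CPM in CPN-/- CRY1, and at 13.56 and 15.94 CPM in CPN-/- CRY2. As a log2 fold change against CPN-/- this was −3.57 (SE 0.20), 11.9-fold lower, in CPN-/- CRY1 and −2.86 (SE 0.19), 7.27-fold lower, in CPN-/- CRY2. In these bulk samples, fewer cells that express a gene and less RNA per cell cannot be told apart. The macrophage and monocyte markers, from cells that also make these chemokines, summed to 14.996 to 18.5 CPM in CPN-/-, 16.3 to 16.7 CPM in CPN-/- CRY1 and 11.3 to 13.2 CPM in CPN-/- CRY2, and 5 of the 8 (Ptprc, Adgre1, Csf1r, Itgam and Spi1) had 10 counts or fewer in every library. Markers of T cells, endothelial cells and epithelial cells summed to at most 1.78 CPM in any library.

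**Figure D1:**
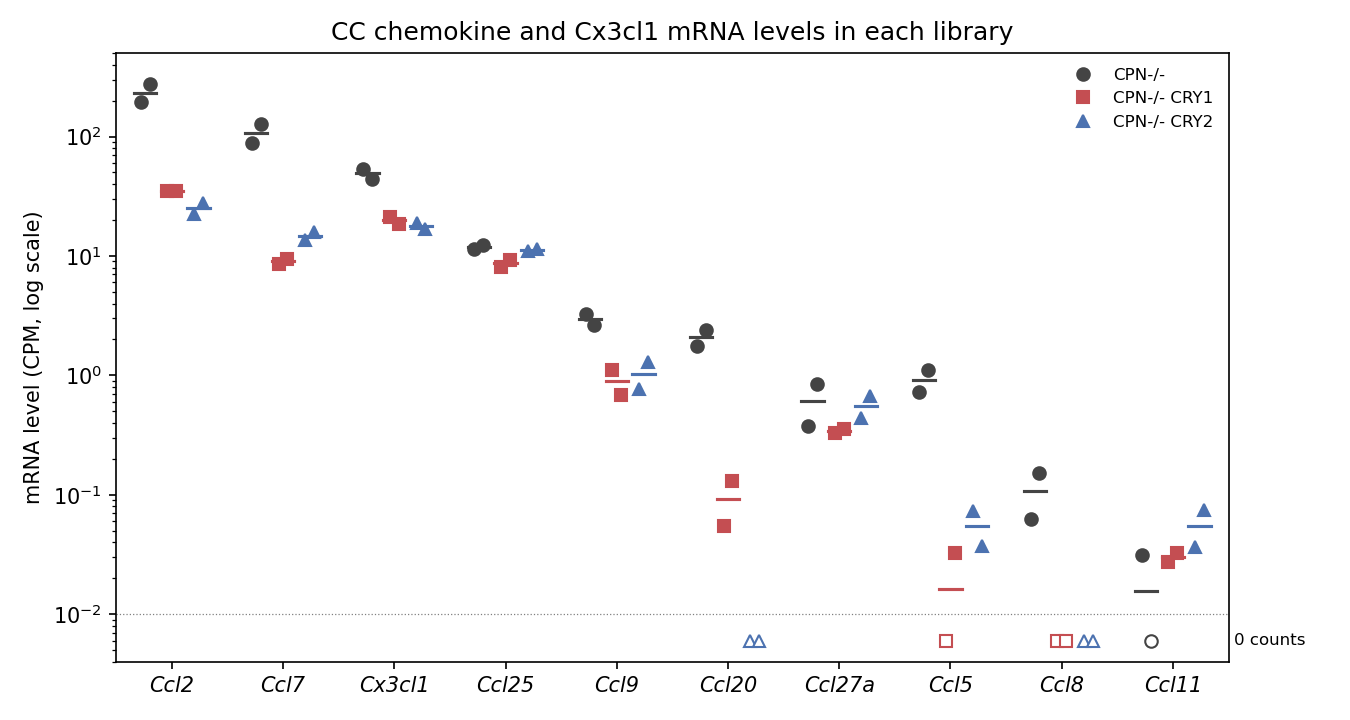
mRNA levels of the 10 genes in CPM on a log axis, with 1 point per library, horizontal lines for the means of 2 libraries, and open points under the dotted line for libraries with 0 counts. For Ccl2, Ccl7, Cx3cl1, Ccl9, Ccl20 and Ccl5 the circles of CPN-/- lie above all points of both derivatives, whereas Ccl25 of CPN-/- CRY2 overlaps CPN-/-.

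Both genes lie on chromosome 11 in the same region as Ccl11 and Ccl8, all on the plus strand (mm10). Ccl2 lies at chr11:82035577-82037452, Ccl7 at chr11:82045712-82047525, Ccl11 at chr11:82057832-82062955 and Ccl8 at chr11:82115185-82116799. These 4 genes were at very different levels. Ccl11, which encodes the eosinophil attractant eotaxin, had 1 and 0 counts in CPN-/-, 1 and 1 in CPN-/- CRY1, with 1 and 2 in CPN-/- CRY2. Those values are at or under the floor of 3 counts over a line, so no fold is given. Ccl8 had 2 and 4 counts in CPN-/- and 0 in all 4 libraries of the derivatives. For Ccl8 the bounds used the floor of 3 counts over the line and took the CPN-/- counts as exact. They were 2.34-fold lower in CPN-/- CRY1 and 1.90-fold lower in CPN-/- CRY2. Neither the counting error of the few CPN-/- counts nor the spread between libraries is covered. Neither Ccl8 nor Ccl11 passed the filter on low counts. Asic2 and Tmem132e, the nearest protein-coding genes on either side that are not CC chemokine genes, had at most 1 count in any library.

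The ratio of Ccl2 to Ccl7 counts separated the lines. It was 2.19 and 2.16 in CPN-/-, 4.08 and 3.72 in CPN-/- CRY1, but 1.66 and 1.73 in CPN-/- CRY2. Ccl7 was therefore the further from its CPN-/- level in CPN-/- CRY1 and Ccl2 in CPN-/- CRY2. Between the derivatives, the log2 fold change of CPN-/- CRY1 against CPN-/- CRY2 was 0.48 (SE 0.18) for Ccl2 and −0.71 (SE 0.20) for Ccl7, and the libraries of both lines did not overlap for either gene. On the RPKM scale, which is CPM per kilobase of exon, Ccl2 (170 and 239.8 RPKM) lay above Ccl7 (110.4 and 157.7 RPKM) in CPN-/-, without overlap. In each CPN-/- CRY2 library Ccl2 (19.8 and 24.3 RPKM) also lay above Ccl7 (16.9 and 19.9 RPKM), although the ranges of both genes overlapped across libraries.

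Cx3cl1 encodes the membrane-bound chemokine fractalkine, which acts on CX3CR1 of monocytes and microglia. The gene lies at chr8:94772180-94782427 on the plus strand. It was at 53.67 and 44.48 CPM in CPN-/-, at 21.19 and 18.55 CPM in CPN-/- CRY1, and at 18.92 and 16.79 CPM in CPN-/- CRY2. All 4 derivative libraries were below both CPN-/- libraries, and the derivatives overlapped each other. The log2 fold change was −1.30 (SE 0.14), 2.47-fold lower, in CPN-/- CRY1 and −1.46 (SE 0.14), 2.75-fold lower, in CPN-/- CRY2. Per kilobase, Cx3cl1 was the third gene of the family in every line, at 12.5 RPKM on average in CPN-/-, 5.06 RPKM in CPN-/- CRY1 and 4.54 RPKM in CPN-/- CRY2.

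Ccl20 and Ccl5 were low in CPN-/- and close to the detection limit in the derivatives. Ccl20, the ligand of CCR6 on Th17 cells and dendritic cells, lies at chr1:83116766-83119167 on the plus strand and had 56 and 63 counts in CPN-/-, 2 and 4 in CPN-/- CRY1, with 0 in both CPN-/- CRY2 libraries. These counts were 1.76 and 2.42 CPM in CPN-/- against 0.0553 and 0.130 CPM in CPN-/- CRY1. The log2 fold change in CPN-/- CRY1 was −4.47 (SE 0.44). In CPN-/- CRY2 the bound on the fold of Ccl20 was 37.7, with the CPN-/- counts taken as exact. Ccl5, which encodes the T cell and monocyte attractant RANTES, lies at chr11:83525778-83530518 on the minus strand and had 23 and 29 counts in CPN-/-, 0 and 1 in CPN-/- CRY1, with 2 and 1 in CPN-/- CRY2. The ratio of CPN-/- to CPN-/- CRY1 was 60.9 (95% exact counting interval 10.5 to 2452) and that of CPN-/- to CPN-/- CRY2 was 16.5 (5.33 to 82.4). The derivatives cannot be ranked for Ccl5 at this depth.

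Ccl9, the murine ligand of CCR1 also called MIP-1 gamma, lies on the minus strand at chr11:83572917-83578636, next to Ccl5. It was at 3.27 and 2.65 CPM in CPN-/-, at 1.11 and 0.681 CPM in CPN-/- CRY1, and at 0.772 and 1.30 CPM in CPN-/- CRY2. The derivatives overlapped each other and lay below CPN-/-, with a log2 fold change of −1.71 (SE 0.31) in CPN-/- CRY1 and −1.52 (SE 0.32) in CPN-/- CRY2. Its transcripts share stretches of 150 to 154 bases, at 95.4% to 96.1% identity, with transcripts of Git2, Sphk1 and Gm25072, so part of these few reads is uncertain.

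Ccl25 and Ccl27a, homeostatic chemokines best known from thymus and gut epithelium and from skin, showed the least difference. Ccl25 (chr8:4325205-4360020, plus strand) was at 11.44 and 12.47 CPM in CPN-/-, at 8.11 and 9.24 CPM in CPN-/- CRY1, and at 10.99 and 11.45 CPM in CPN-/- CRY2. For Ccl25 only the CPN-/- CRY1 libraries lay clear of CPN-/-, with a log2 fold change of −0.46 (SE 0.13) against −0.09 (SE 0.13) in CPN-/- CRY2. The gene model of Ccl25 shares 204 exon bases (2.74% of its exon length) with Elavl1 on the opposite strand, and the strand setting of the counting is not given in the sources used here. Ccl27a (chr4:41769467-41774225, minus strand) had 11 to 22 counts in each library, at 0.377 and 0.844 CPM in CPN-/-, 0.332 and 0.357 CPM in CPN-/- CRY1, and 0.441 and 0.667 CPM in CPN-/- CRY2. On the log2 scale the fold change was −0.78 (SE 0.47) in CPN-/- CRY1 and −0.10 (SE 0.45) in CPN-/- CRY2. The value in CPN-/- CRY1 rested on the CPN-/- libraries, at −1.29 without CPN-/- replicate 1 and −0.13 without CPN-/- replicate 2. Ccl27a shares 425 bases at 99.3% identity with Ccl27b and 766 identical bases with Gm20878, so that its count is uncertain.

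**Figure D2:**
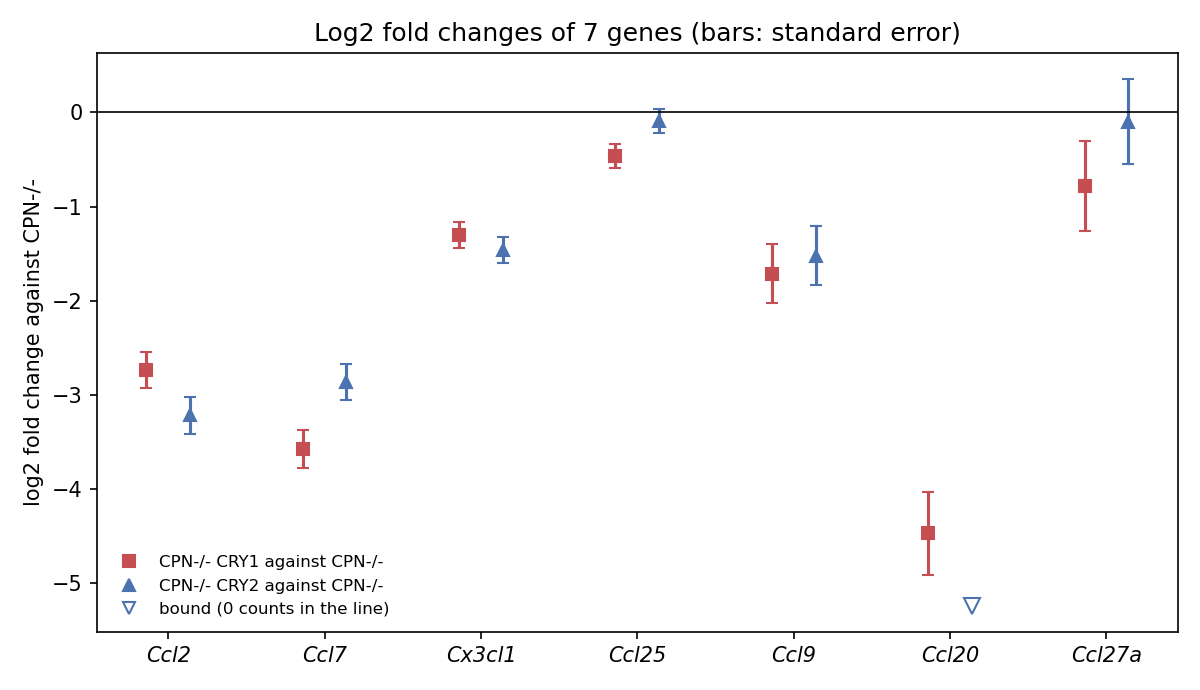
Log2 fold changes of 7 genes in CPN-/- CRY1 (squares) and CPN-/- CRY2 (triangles) against CPN-/-, with standard errors, and an open triangle for the bound of Ccl20 in CPN-/- CRY2, where the line had 0 counts. Ccl2, Ccl7 and Ccl20 lie at −2.73 or lower in both lines, Cx3cl1 and Ccl9 between −1.30 and −1.71, and Ccl25 and Ccl27a of CPN-/- CRY2 within 1 standard error of 0. Ccl5 is left out because both derivatives had 3 counts or fewer.

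Of the 10 genes, 8 were tested. At an adjusted p under 0.05 (edgeR quasi-likelihood test), 7 were called lower in CPN-/- CRY1 against CPN-/-, where 13.1% of all 14069 tested genes were called lower, with Ccl27a as the exception. In CPN-/- CRY2 against CPN-/-, 6 were called lower, where 4.08% of all tested genes were, with Ccl25 and Ccl27a as the exceptions. Both CPN-/- CRY1 libraries lay below both CPN-/- libraries for all 8 tested genes, where 34% of all tested genes had this order, and both CPN-/- CRY2 libraries did for 6, where 27.2% did. The tested genes had a median log2 fold change of −2.22 in the first comparison and of −2.19 in the second, and that of all tested genes was −0.01 in both. These counts restate the choice of the genes and the filter, and nothing is read from them. Both comparisons also share the CPN-/- libraries. Without CPN-/- replicate 1, Ccl27a was called too in CPN-/- CRY1. The Ccl25 call was lost when any 1 of the 4 derivative libraries was left out, the Ccl9 call in CPN-/- CRY1 without CPN-/- CRY1 replicate 2 and in CPN-/- CRY2 without any 1 of the 4 derivative libraries, and the Ccl5 call in CPN-/- CRY2 without either CPN-/- CRY2 library. With only the 4 libraries of a comparison, Ccl25 was lost in CPN-/- CRY1 and Ccl9 in CPN-/- CRY2.

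In the direct comparison of CPN-/- CRY1 with CPN-/- CRY2, edgeR called 0 of the 8 tested genes, where 16.3% of all tested genes were called in either direction. An unadjusted edgeR p under 0.05 was found for 4, and DESeq2 called 1, Ccl7. The shares of all tested genes that met these criteria are not given here, so nothing is read from these counts. The log2 fold change was 0.16 (SE 0.14) for Cx3cl1, −0.19 (SE 0.36) for Ccl9, −0.37 (SE 0.13) for Ccl25 and −0.68 (SE 0.49) for Ccl27a. Both libraries of CPN-/- CRY1 lay below those of CPN-/- CRY2 for 4 tested genes, Ccl5, Ccl7, Ccl25 and Ccl27a, an order that 36.9% of all tested genes had. They lay above them for Ccl2 and Ccl20, and the share of all tested genes in that order is not given here. Without either CPN-/- library, Ccl2, Ccl7, Ccl20 and Ccl25 were called.

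Summed over these 10 genes and the other 16 CC chemokine genes in the tables, chemokine mRNA was at 358 and 465 CPM of total library counts in CPN-/-, at 74.7 and 73.1 CPM in CPN-/- CRY1, and at 67.4 and 73.4 CPM in CPN-/- CRY2. The derivatives overlapped in this sum. They differed in its makeup, since Ccl2 alone gave 54.8% and 58.9% of it in CPN-/-, 46.9% and 47.6% in CPN-/- CRY1, but 33.4% and 37.3% in CPN-/- CRY2. Ccl2, Ccl7 and Cx3cl1 together gave 94.96% and 95.7% in CPN-/-, 86.8% and 85.5% in CPN-/- CRY1, but 81.6% and 81.4% in CPN-/- CRY2. The other 16 CC genes had 3 to 9 counts in sum in each library. Of these, 10 had 0 counts in every library, among them Ccl4, Ccl12, Ccl19 and Ccl22, and the highest single count was 6, for Ccl6.

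**Figure D3:**
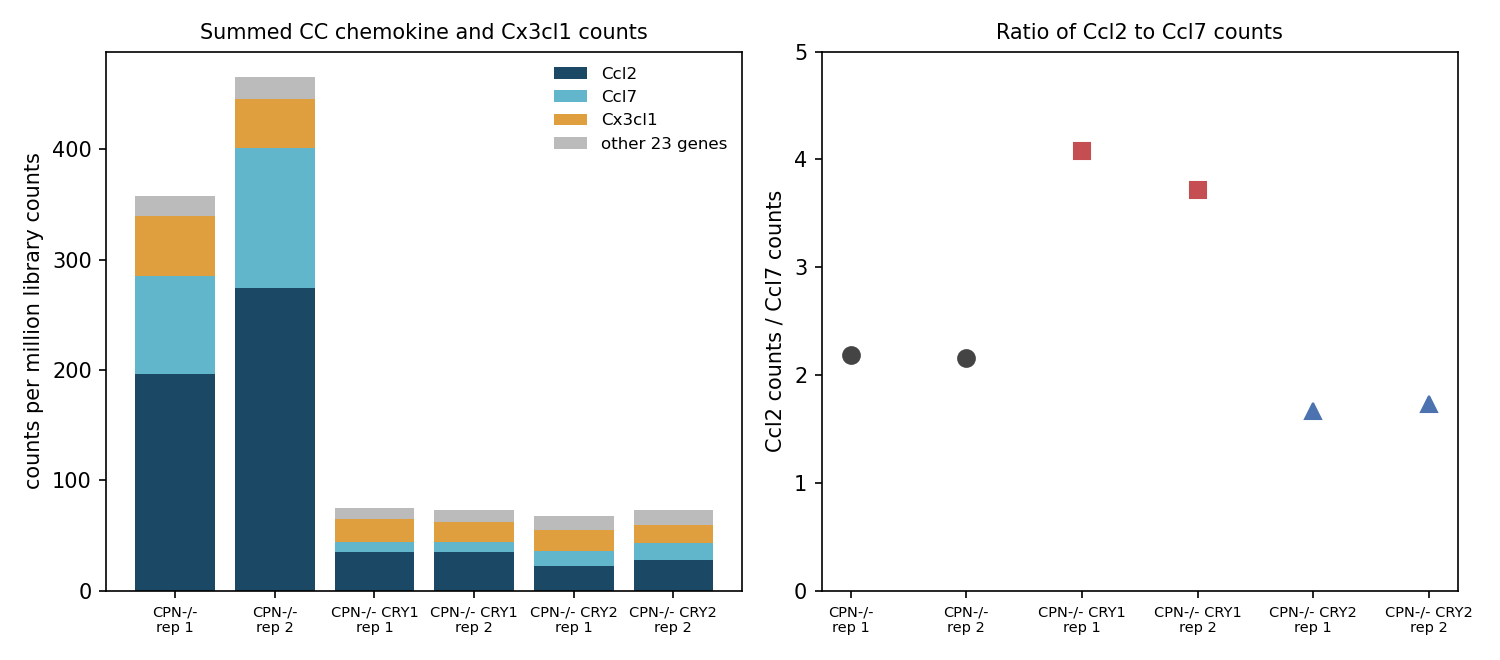
Left, counts of the 26 CC chemokine and Cx3cl1 genes as CPM of total library counts in each library, stacked by gene. Right, the ratio of Ccl2 to Ccl7 counts in each library. The sum is at 358 or more in both CPN-/- libraries and at 74.7 or less in the others, and the ratio is near 2.2 in CPN-/-, above 3.7 in CPN-/- CRY1 and below 1.8 in CPN-/- CRY2.

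The genes whose pattern over the 6 libraries was closest to that of Ccl2 were Mgarp, Fez1 and Xlr, by the Euclidean distance between centred log2 CPM values among 12600 genes. Mgarp encodes a mitochondrial protein of steroid-producing cells, Fez1 a kinesin adaptor of axonal transport, and Xlr a nuclear protein of lymphoid cells. The distances were 0.594, 0.695 and 0.914. Mgarp was at 6.13 and 7.56 CPM in CPN-/-, at 1.47 and 1.01 CPM in CPN-/- CRY1, and at 0.845 and 1.15 CPM in CPN-/- CRY2. Ccl7 ranked 8 (distance 1.23), Ccl9 41 (1.85), Cx3cl1 61 (1.97) and Ccl25 2728 (3.23). The likeness is a description over 6 libraries of 3 lines, and any gene lower in both derivatives by a like amount comes close.

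Promoters of 6 of the 10 genes were in the RefSeq table of GRCm38.p6, but not those of Ccl2, Ccl5, Ccl7 and Ccl11. Of these 6, Ccl20, Ccl9 and Cx3cl1 passed the filter on low counts and lay below CPN-/- in every library of both derivatives. The 250 bases before their start are shown, with every match to a searched motif in capitals, 5′ to 3′ on the strand of the gene:
Ccl20 (chr1:83116516-83116765, plus strand): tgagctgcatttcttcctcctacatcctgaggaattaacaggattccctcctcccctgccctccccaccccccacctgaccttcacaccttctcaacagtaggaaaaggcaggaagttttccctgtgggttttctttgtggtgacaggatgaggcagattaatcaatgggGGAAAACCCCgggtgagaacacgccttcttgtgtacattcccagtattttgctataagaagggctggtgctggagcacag
Ccl9 (chr11:83578637-83578886, minus strand): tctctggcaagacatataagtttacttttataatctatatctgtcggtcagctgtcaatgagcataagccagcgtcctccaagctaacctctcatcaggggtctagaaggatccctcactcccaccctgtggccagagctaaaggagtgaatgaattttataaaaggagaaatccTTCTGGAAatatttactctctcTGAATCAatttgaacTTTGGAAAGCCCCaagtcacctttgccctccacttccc
Cx3cl1 (chr8:94771930-94772179, plus strand): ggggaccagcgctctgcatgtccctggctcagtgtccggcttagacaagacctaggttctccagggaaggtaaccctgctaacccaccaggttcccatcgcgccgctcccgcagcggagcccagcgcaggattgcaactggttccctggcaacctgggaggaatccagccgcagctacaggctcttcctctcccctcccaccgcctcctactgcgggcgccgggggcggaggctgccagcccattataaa
The motifs searched on both strands were the canonical E-box CACGTG, bound by CLOCK-BMAL1, the AP-1 motif TGANTCA, the C/EBP motif TTNNGNAA and the NF-kB consensus. Of 32851 promoter windows of the same length, 6.02% held CACGTG, 6.75% TGANTCA, 36.8% TTNNGNAA and 7.25% the NF-kB consensus. The Ccl20 window held the NF-kB consensus 80 to 71 bases before the start. In the Ccl9 window the NF-kB consensus lay 35 to 26 bases before the start, overlapping a TTNNGNAA match at 38 to 31, with TGANTCA at 53 to 47 and another TTNNGNAA at 75 to 68. None of these letters occurred in the windows of Cx3cl1, Ccl8 and Ccl25. Those of Ccl27a held TTNNGNAA and, in 1 of its windows, TGANTCA. No window of the 6 genes held CACGTG, which says only that these letters are not in this stretch.

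Genes that act on or upstream of these chemokines were taken as 7 lists by role, also with earlier results of these data known. Of their 70 tested genes, 30 were called in CPN-/- CRY1 against CPN-/- (18 lower, 12 higher, against 24.3% of all tested genes in either direction) and 20 in CPN-/- CRY2 (17 lower, 3 higher, against 6.66%). These totals depended on single libraries. In CPN-/- CRY1 the total was 15 without either CPN-/- CRY1 library, 50 without CPN-/- replicate 1 and 51 without CPN-/- replicate 2. In CPN-/- CRY2 it was 6 and 8 without CPN-/- CRY2 replicate 1 and 2, and 54 and 43 without CPN-/- replicate 1 and 2. All adjusted p-values below are from the edgeR quasi-likelihood test over all tested genes.

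Transcription and mRNA stability factors that act on chemokine genes included 26 tested genes, 10 of them lower and 4 higher in CPN-/- CRY1 (median log2 fold change −0.03) and 8 of them lower in CPN-/- CRY2 (median −0.19). Lower in both lines were Nfkbie, Nfkbiz, Zc3h12a and Cebpd and, named after their values were seen, Nfkbia, Relb, Tnfaip3 and Irf1. Most of these are known NF-kB target genes, and Nfkbia, Nfkbie and Tnfaip3 encode inhibitors of the pathway. Genes of this pathway were put on the list by role, and the activity of the pathway was not tested. Zc3h12a encodes regnase-1, an endonuclease that degrades cytokine mRNA, and was at 21.5 and 19.8 CPM in CPN-/-, at 7.30 and 7.04 CPM in CPN-/- CRY1, and at 5.07 and 5.34 CPM in CPN-/- CRY2. The corresponding log2 fold change was −1.52 (SE 0.12, adjusted p = 4.9e-04) in CPN-/- CRY1 and −1.99 (SE 0.12, adjusted p = 4.5e-04) in CPN-/- CRY2. Nfkbie, which encodes IkB epsilon, fell from 25.5 and 26.9 CPM to 9.10 and 9.86 CPM in CPN-/- CRY1 and 8.60 and 9.34 CPM in CPN-/- CRY2 (adjusted p = 5.1e-04 and 9.0e-04). Nfkbiz, a nuclear IkB protein that promotes secondary response genes, had log2 fold changes of −1.12 (SE 0.16, adjusted p = 0.0046) and −1.64 (SE 0.16, adjusted p = 0.0025). Cebpd, which encodes C/EBP delta, had −0.98 (SE 0.16, adjusted p = 0.0070) and −1.68 (SE 0.16, adjusted p = 0.0022). Nfkbiz and Cebpd lie on chromosome 16, where the median of all tested genes was 0.27 in CPN-/- CRY1. In CPN-/- CRY1 the Nfkbiz call was lost in 1 and the Cebpd call in 2 of 13 alternatives. The NF-kB subunit genes Nfkb1, Nfkb2 and Rel did not pass the test in either line. Among the 4 genes higher in CPN-/- CRY1 were Irf7, Dusp1 and Rela, named after their values were seen, the last on chromosome 19, where the median of all tested genes was 0.31 against 0.33 for Rela, whose call was lost in 6 of 13 alternatives.

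Receptors and adaptors for chemokine-inducing signals gave 20 tested genes, 4 lower and 4 higher in CPN-/- CRY1 (median log2 fold change 0.09) and 5 lower in CPN-/- CRY2 (median −0.04). Tlr2 and Il13ra1 were lower in both lines. Tlr2, the receptor of bacterial lipoproteins, was at 49.5 and 49.2 CPM in CPN-/-, at 20.9 and 19.9 CPM in CPN-/- CRY1, and at 30.7 and 26.3 CPM in CPN-/- CRY2. As a log2 fold change against CPN-/- this was −1.28 (SE 0.11, adjusted p = 7.2e-04) in CPN-/- CRY1, on chromosome 3 with a median of −0.28 there, and −0.79 (SE 0.11, adjusted p = 0.0083) in CPN-/- CRY2, a call lost in 2 of 13 alternatives. Tlr4, the lipopolysaccharide receptor, was higher in CPN-/- CRY1 by 1.58 on the log2 scale (SE 0.19, adjusted p = 0.0026), and its value in CPN-/- CRY2 was 0.80 (adjusted p = 0.059). Il13ra1, a subunit of the IL-13 receptor, had −0.43 (SE 0.12, adjusted p = 0.047) in CPN-/- CRY1, a call lost in 6 of 13 alternatives, and −1.02 (SE 0.13, adjusted p = 0.0053) in CPN-/- CRY2, a call lost in 2. Pdgfra, a receptor of platelet-derived growth factors, fell in CPN-/- CRY1 by 1.31 in log2 units (SE 0.14, adjusted p = 0.0015), with 0.10 (SE 0.14, adjusted p = 0.64) in CPN-/- CRY2. The remaining calls, named after their values were seen, were Il17rc lower and Il17ra, Il1rap and Pdgfrb higher in CPN-/- CRY1, and Ifngr2, Ifnar2 and Osmr lower in CPN-/- CRY2.

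Of 12 cytokine genes that can induce these chemokines, 3 passed the filter. Tnf, Il1b, Il17a, Ifng, Ifnb1, Il13 and Osm had at most 1 count in any library. Il1a, which was not tested, had 4 to 16 counts. It was at 0.314 and 0.614 CPM in CPN-/-, at 0.138 and 0.162 CPM in CPN-/- CRY1, and at 0.147 and 0.296 CPM in CPN-/- CRY2. Pdgfb, a platelet-derived growth factor chain, was at 8.52 and 10.7 CPM in CPN-/-, at 13.3 and 11.5 CPM in CPN-/- CRY1, and at 1.87 and 1.89 CPM in CPN-/- CRY2. It fell by 2.35 on the log2 scale in CPN-/- CRY2 (SE 0.19, adjusted p = 0.0011), with 0.37 (SE 0.15, adjusted p = 0.13) in CPN-/- CRY1. Il6, named after its values were seen, was at 0.912 and 0.806 CPM in CPN-/-, at 1.11 and 1.46 CPM in CPN-/- CRY1, and at 0.110 and 0.259 CPM in CPN-/- CRY2, where its log2 fold change was −2.20 (SE 0.44, adjusted p = 0.032), a call lost in 5 of 12 alternatives. Pdgfa was higher in CPN-/- CRY1 by 0.63 (SE 0.12, adjusted p = 0.014), a call lost in 2 of 13 alternatives. All 3 were higher in CPN-/- CRY1 than in CPN-/- CRY2 in the direct comparison (adjusted p = 0.0061 for Il6, 0.0059 for Pdgfa and 3.9e-04 for Pdgfb), and these calls were lost in 2 of 12, 3 of 13 and 0 of 13 alternatives.

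**Figure D4:**
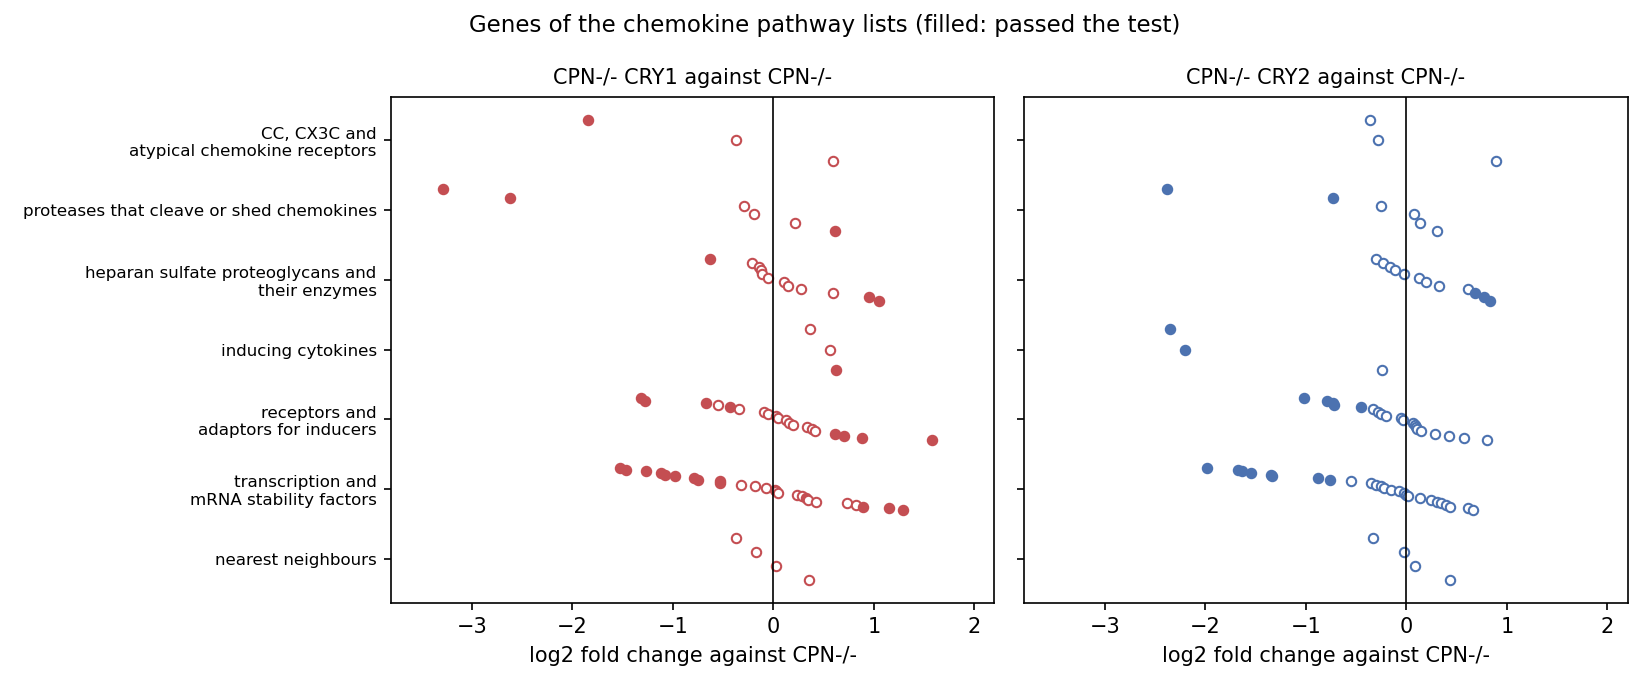
Log2 fold changes against CPN-/- of the tested genes in 6 pathway lists and among the nearest neighbours, for CPN-/- CRY1 (left) and CPN-/- CRY2 (right), with filled points at an adjusted p under 0.05. The 10 and 8 lower calls among transcription and mRNA stability factors reach −1.52 and −1.99, and filled points lie on both sides of 0 for 4 of the 6 lists in CPN-/- CRY1.

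Receptors for these ligands were mostly undetected, and 3 of 17 listed genes passed the filter. Ccr1, Ccr2 and Ccr3 had 0 counts in every library, and Cx3cr1 and Ccr6 at most 2 and 1. Ackr3, an atypical receptor that scavenges CXCL12, was at 12.6 and 13.4 CPM in CPN-/-, at 4.29 and 2.92 CPM in CPN-/- CRY1, and at 10.32 and 11.007 CPM in CPN-/- CRY2. On the log2 scale the fold change was −1.84 (SE 0.19, adjusted p = 0.0014) in CPN-/- CRY1 and −0.29 (SE 0.17, adjusted p = 0.34) in CPN-/- CRY2, and the lines differed directly by −1.56 (SE 0.19, adjusted p = 0.0031). Ackr4, a scavenger of CCL19, CCL21 and CCL25, and Ccr10, the receptor of CCL27, did not pass the test in any comparison.

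Among proteases that cleave or shed chemokines, 6 of 10 were tested, with 2 called lower and 1 called higher in CPN-/- CRY1 and 2 called lower in CPN-/- CRY2. Mmp3, stromelysin-1, was at 5.85 and 6.18 CPM in CPN-/-, at 0.609 and 0.616 CPM in CPN-/- CRY1, and at 4.005 and 3.26 CPM in CPN-/- CRY2. The corresponding log2 fold change was −3.29 (SE 0.20, adjusted p = 2.5e-04) in CPN-/- CRY1 and −0.72 (SE 0.16, adjusted p = 0.046) in CPN-/- CRY2, where the call was lost in 9 of 13 alternatives. Mmp13, a collagenase named after its values were seen, had −2.61 (SE 0.30, adjusted p = 0.0020) in CPN-/- CRY1 and −2.38 (SE 0.30, adjusted p = 0.0056) in CPN-/- CRY2, the latter lost in 1 of 12 alternatives. Of the enzymes that shed CX3CL1, Adam10 was higher in CPN-/- CRY1 by 0.61 (SE 0.16, adjusted p = 0.032), a call lost in 5 of 13 alternatives, and Adam17 did not pass the test in any comparison.

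Heparan sulfate proteoglycans and their enzymes gave 12 tested genes, 1 lower and 2 higher in CPN-/- CRY1 and 3 higher in CPN-/- CRY2. The syndecan gene Sdc3 was at 45.0 and 34.8 CPM in CPN-/-, at 80.9 and 84.5 CPM in CPN-/- CRY1, and at 37.3 and 36.8 CPM in CPN-/- CRY2. It was higher in CPN-/- CRY1 by 1.05 on the log2 scale (SE 0.13, adjusted p = 0.0033). Hs6st1, which encodes a heparan sulfate 6-O-sulfotransferase, was higher in the same line by 0.95 (SE 0.11, adjusted p = 0.0022). In CPN-/- CRY2 the genes called higher were Sdc2 (0.77, SE 0.11, adjusted p = 0.0080, lost in 2 of 13 alternatives), the sulfatase gene Sulf2 (0.83, SE 0.17, adjusted p = 0.032, lost in 5 of 13 alternatives) and Gpc1. The glypican gene Gpc1, named after its values were seen, had −0.63 (adjusted p = 0.0077) in CPN-/- CRY1, a call lost in 2 of 13 alternatives, and 0.68 (adjusted p = 0.012) in CPN-/- CRY2, lost in 5, and differed directly by −1.31 (SE 0.11, adjusted p = 6.3e-04).

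The nearest other protein-coding genes on either side of the 10 genes were 12, of which 4 were tested (Elavl1, Cers4, Il11ra1 and Ciapin1). edgeR called 0 of them in each comparison and DESeq2 called 0. At an unadjusted edgeR p under 0.05 there was 1 in CPN-/- CRY1 against CPN-/-, 2 in CPN-/- CRY2 against CPN-/- and 0 in the direct comparison. The share of all tested genes at that threshold is not given here. Elavl1, whose exons overlap Ccl25 on the other strand, was at 121 to 131 CPM in every library. The chromosomes that carry the 10 genes had median log2 fold changes in CPN-/- CRY1 of 0.11 (chromosome 1), 0.02 (chromosome 4), 0.01 (chromosome 8) and −0.11 (chromosome 11).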

How the data were processed

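mRNA of 3 MEF lines was sequenced by the authors as stranded, paired-end poly(A) libraries, mapped to mm10 with STAR and counted per gene with featureCounts, per the labels and the methods of the study. The deposited values are whole counts per NCBI Gene identifier without normalization, for 27179 genes, of which 25275 had a RefSeq symbol. The gene annotation and the handling of reads with several matches are not given in the sources used here. Groups were taken from the sample labels, with 2 libraries per line.

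Counts were tested with edgeR 4.0.16 in R 4.3.3: filterByExpr at its defaults (at least 10 counts in enough libraries and 15 in total, leaving 14069 genes), TMM factors, a robust quasi-likelihood fit with cell line as the only term over all 6 libraries, and two-sided tests with p adjusted by Benjamini-Hochberg over the whole table. A gene was called at an adjusted p under 0.05. SE was obtained by dividing the absolute log2 fold change by the root of the F statistic. CPM were divided by GENCODE exon length for RPKM. Where a line had 0 counts, folds are bounds against 3 counts over the line, with the CPN-/- counts taken as exact. With 1 to 3 counts a ratio with its 95% exact interval is given, for counting error only. Neither covers the spread between libraries.

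The 10 genes, the lists and the tests were chosen with earlier results of these data known, so calls for the 10 genes restate their choice and no p is given for them. From each list, the genes called in at least 1 CRY line at a mean of 1 CPM or more were named, at most 4 per list by the largest change, with every called neighbour and the 3 genes closest to Ccl2. Called genes named outside this rule are marked in the text, and a few genes are not reported here by name. Alternatives were DESeq2 1.42.0 (its test and its size factors), no filter, 10 counts in every library, a replicate block, only the 4 libraries compared, removal of a trend with exon length (loess, span 0.5), and leaving out each library. The steps were tested on simulated data. Shared sequence was searched with BLAST+ 2.17.0 (95% identity, 150 bases). With 2 libraries per line, p-values measure the spread between RNA preparations within lines, not between clones. This spread was estimated jointly over all 6 libraries, so p-values between the derivatives also carry the spread of the CPN-/- libraries. The smallest exact permutation p is 0.333.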

Additional observations from a re-analysis of the deposited data

Results flagged for a closer look

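Over the pathway lists, the direct edgeR test between CPN-/- CRY1 and CPN-/- CRY2 passed the threshold for 26 of 70 tested genes. It did for 16.3% of all tested genes. Genes were named by the size of their change against CPN-/- or after their values were seen. The number of named genes that passed thus follows from that choice and is not set against this share. Among the named genes, 16 passed. In 8 of them the fitted changes of both lines against CPN-/- had opposite signs, although for Sdc3 and Pdgfra the CPN-/- CRY2 libraries lay between the CPN-/- libraries. Pdgfb differed by 2.71 on the log2 scale (SE 0.18, adjusted p = 3.9e-04), with 0.37 in CPN-/- CRY1 and −2.35 in CPN-/- CRY2 against CPN-/-. Il6 differed by 2.76 (SE 0.40, adjusted p = 0.0061), with 0.56 and −2.20. Gpc1 differed by −1.31 (SE 0.11, adjusted p = 6.3e-04), with −0.63 and 0.68. Pdgfra differed by −1.42 (SE 0.14, adjusted p = 0.0013), with −1.31 and 0.10. Sdc3 differed by 1.16 (SE 0.13, adjusted p = 0.0026), with 1.05 and −0.11. Sdc2 differed by −0.91 (SE 0.11, adjusted p = 0.0024), with −0.14 and 0.77. Pdgfa differed by 0.87 (SE 0.13, adjusted p = 0.0059), with 0.63 and −0.24. Rela differed by 0.58 (SE 0.09, adjusted p = 0.0071), with 0.33 and −0.25. Of these 8, both changes against CPN-/- passed the test for Gpc1 alone.

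The other 8 had the same sign in both lines and differed in size. CPN-/- CRY1 lay below CPN-/- CRY2 by a log2 fold change of −2.56 for Mmp3, −1.56 for Ackr3 and −0.49 for Tlr2. It lay above by 0.77 for Tlr4, 0.70 for Cebpd, 0.63 for Hs6st1, 0.59 for Il13ra1 and 0.46 for Zc3h12a (adjusted p = 0.049). The calls of Ackr3, Mmp3, Sdc3, Pdgfb, Pdgfra and Gpc1, passed in all 13 alternatives. The others were lost in 8 of 13 for Zc3h12a, in 4 of 13 each for Tlr2, Tlr4, Il13ra1, Cebpd, Hs6st1 and Rela, in 3 of 13 for Pdgfa, in 2 of 12 for Il6 and in 1 of 13 for Sdc2. Every loss but 4 of those of Zc3h12a came from leaving out a library of CPN-/- CRY1 or CPN-/- CRY2. In the direct comparison the median of all tested genes was −0.40 on chromosome 3, against −0.49 for Tlr2, and 0.46 on chromosome 19, against 0.58 for Rela. It was 0.35 on chromosome 16, where Cebpd lies, and −0.43 on chromosome 15, where Pdgfb and Sdc2 lie. The part of these chromosome shifts in the differences was not tested. None of the 10 chemokine genes was singled out in this way, and groups of 2 libraries allow no test for a library that stands apart.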

How the results depend on the processing

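For the chemokine genes, 269 values from the alternatives kept their direction and their side of the threshold, 17 passed it newly, 13 lost it and 5 changed sign. In the direct comparison of CPN-/- CRY1 with CPN-/- CRY2, 0 chemokine genes were called by edgeR, 1 (Ccl7) by the DESeq2 test, 1 (Ccl7) without a filter, 2 (Ccl2 and Ccl7) with the length trend removed and 3 (Ccl2, Ccl7 and Ccl25) with only the 4 libraries of the comparison. Leaving out 1 library gave 0 to 4 in that comparison, with 4 without either CPN-/- library, 5 to 8 in CPN-/- CRY1 against CPN-/- and 4 to 6 in CPN-/- CRY2 against CPN-/-. With at least 10 counts in every library, Ccl5 and Ccl20 were not tested, which left 5 and 4 calls against CPN-/-. The pathway genes called in the direct comparison rose from 26 to 50 with only its 4 libraries and to 43 with the length trend removed. Leaving out 1 library gave 8 to 50 there, with 50 without either CPN-/- library, 9 without CPN-/- CRY1 replicate 1 or 2 or CPN-/- CRY2 replicate 1, and 8 without CPN-/- CRY2 replicate 2. The range was 15 to 51 in CPN-/- CRY1 against CPN-/- and 6 to 54 in CPN-/- CRY2 against CPN-/-. The cause was not tested.

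Replicate numbers did not pair the libraries: the correlations of same-numbered deviations between lines were −0.08, 0.14 and −0.03. A replicate block called 7, 6 and 1 chemokine genes in the 3 comparisons and 32, 20 and 27 pathway genes.

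Values near 0 changed sign. In CPN-/- CRY2 against CPN-/-, the log2 fold change of Ccl27a was 0.021 and that of Pdgfra −0.087 with the length trend removed. Leaving out 1 library moved Ccl27a between −0.61 and 0.56 (0.17 without CPN-/- CRY2 replicate 1), Adam10 between −0.071 and 0.39, Sdc3 between −0.27 and 0.089, and Pdgfra between −0.059 and 0.30, with both ends set by the CPN-/- libraries. Between the derivatives, leaving out 1 library moved Ccl9 between −0.60 and 0.22 (0.10 without CPN-/- CRY1 replicate 2), Mmp13 between −0.57 and 0.21, and Xlr between −0.40 and 0.0084, the upper ends without CPN-/- CRY2 replicate 2 for Ccl9 and Mmp13 and without CPN-/- CRY2 replicate 1 for Xlr. The rank correlation between exon length and the log2 difference of the 2 libraries was 0.587 in CPN-/-, −0.186 in CPN-/- CRY1 and 0.242 in CPN-/- CRY2. Depth limits Ccl5, Ccl8, Ccl11 and Ccl20 in the derivatives.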
